A study of Mus musculus with 9 samples.

Results

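The 10 genes described here encode enzymes that use molecular oxygen to take methyl groups off histones or to oxidise methylated cytosine in DNA. They are Kdm3a, Kdm4b and Kdm4c, which act on lysine 9 of histone H3 (H3K9), Kdm5a, Kdm5b and Kdm5c, which act on lysine 4 (H3K4), Kdm6a and Kdm6b, which act on lysine 27 (H3K27), and Tet2 and Tet3, which act on 5-methylcytosine. They were taken by gene name from the 54532 genes of the expression table, and each name matched 1 row. Kdm5b had almost no reads, so 9 of the 10 could be compared between groups.

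All 10 enzymes are dioxygenases that hold iron and consume oxygen together with 2-oxoglutarate, a metabolite of the tricarboxylic acid cycle, and release succinate. The histone demethylases do this through a JmjC domain, and the TET enzymes turn 5-methylcytosine into 5-hydroxymethylcytosine and further oxidised forms. Because oxygen is a substrate, the activity of some of these enzymes falls when oxygen is scarce, and several of their genes, Kdm3a among them, are known targets of the hypoxia-inducible factors (HIF). Kdm6b is also known as a gene that macrophages induce on inflammatory stimulation. RNA levels were measured here, and neither enzyme activity nor histone or DNA methylation was.

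BV2 cells are an immortalized mouse microglial line. The control libraries came from cells in complete medium with 10% serum. The OGD libraries came from cells under oxygen-glucose deprivation, that is, in medium low in glucose, with 4% serum and at 4% oxygen, so that oxygen, glucose and serum differed together from control. The OGD + A-485 libraries, called the A-485 libraries or A-485 group from here on, came from cells under OGD that also received A-485, which inhibits P300, a histone acetyltransferase. In the experiments before the transcriptome, cells received 50 μM A-485 as OGD began and kept it for 24 h, and both values are taken to apply here. Each group had 3 libraries, and no group had A-485 without OGD. Nothing states that the libraries of a group came from separate cultures, so the p-values measure the spread between these libraries, which may be technical. The cells came as 1 line in bulk, in which fewer cells of a type and less RNA per cell cannot be told apart.

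The libraries held 12593250 to 16091038 reads on genes, and the share of mitochondrial reads ran from 1.14% to 2.20%. Levels are in FPKM, the reads on a gene divided by its length and by a divisor for each library. The 10 microglia and macrophage marker genes summed to between 473 and 490 FPKM in control libraries, 564 to 594 in OGD libraries and 1110 to 1130 in A-485 libraries. C1qa was at 0 in every control and OGD library. Of the 9 that were tested, 4 were called higher and 0 lower in OGD than in control, and 8 were called higher and 0 lower in the A-485 group than in OGD, with medians of 0.47 and 1.35 on the log2 scale. Of all genes tested, 11.2% and 12.2% were called higher in these comparisons. The marker lists of other cell types, of 5 genes each, stayed low: the highest sum in any library was 0.155 FPKM for astrocytes, 0.129 for neurons, 0.0234 for fibroblasts, 1.58 for endothelial cells and 2.36 for oligodendrocytes. The endothelial sum ran from 0.572 to 0.731 FPKM in control, 1.14 to 1.58 in OGD and 1.03 to 1.37 with A-485, and the oligodendrocyte sum from 1.44 to 1.57, 1.70 to 2.36 and 1.02 to 1.33. Among the defining markers at 0 in all 9 libraries were Aqp4, Mog, Col1a2 and Cldn5. As a check of the labels, all 10 of a list of hypoxia genes were called higher in OGD than in control (median log2 fold change 1.28), with Egln3, the prolyl hydroxylase PHD3, at 84.8 ± 4.90 FPKM in control and 335 ± 3.77 in OGD. In the A-485 group, 9 of the 10 were also called higher than in control (median 1.18), and the exception was Egln3, at 53.4 ± 0.846 FPKM (SD, n = 3). The part of these marker levels in the results below was not tested.

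HIF binds DNA at a core of 5 letters, ACGTG or GCGTG. RefSeq promoter windows, from 250 bases before to 50 bases after a start site, were at hand for 7 of the 10 genes, in 10 windows, and not for Kdm4b, Kdm5a and Kdm6b. The core, read on both strands, was in 5 of the 10 windows, 1 each for Kdm3a, Kdm4c, Kdm5b, Kdm6a and Tet2, and in none for Kdm5c or Tet3. Of all 32851 mouse windows of this length, 43.8% held it. The windows below are shown because Kdm3a, Kdm4c and Tet2 were called higher in OGD and Tet3, a paralog of Tet2, was not. Of those not shown, the Kdm6a window had 4 matching positions, and Kdm6a was not called with OGD (log2 fold change -0.15). The Kdm5b window had 2, and Kdm5b had almost no reads. As the windows shown were picked by the calls, a link between the core and the calls was not tested. Capitals mark ACGTG or GCGTG on either strand, and the text is 5′ to 3′ on the strand of the gene. The Kdm3a window, the first of 3, is chr6:71632868-71633167 on the minus strand of GRCm38.p6, with 1 match at 27 bases before the start site. The other Kdm3a windows had no match. The first of 2 Kdm4c windows had no match. The second, shown here, is chr4:74251629-74251928 on the plus strand, with 6 matching positions between 85 and 32 bases before the start. In it, 4 of the 6 positions belong to 2 copies of CACGTG, in which ACGTG is read on both strands and which is present in 7.15% of all windows. The Tet2 window is chr3:133544341-133544640 and the Tet3 window chr6:83441629-83441928, both on the minus strand, and Tet2 has 1 match at 16 bases before the start. The Tet3 window has its start site at 83441678, inside the gene, which on the minus strand begins at 83459084. Sequence at that upstream end was not examined.
Kdm3a: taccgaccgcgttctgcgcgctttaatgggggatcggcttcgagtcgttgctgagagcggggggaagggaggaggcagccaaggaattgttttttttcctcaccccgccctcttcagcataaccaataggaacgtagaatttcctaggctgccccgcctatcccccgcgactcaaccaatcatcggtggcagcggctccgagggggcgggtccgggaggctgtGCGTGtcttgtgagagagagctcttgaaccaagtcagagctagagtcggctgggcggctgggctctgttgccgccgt
Kdm4c: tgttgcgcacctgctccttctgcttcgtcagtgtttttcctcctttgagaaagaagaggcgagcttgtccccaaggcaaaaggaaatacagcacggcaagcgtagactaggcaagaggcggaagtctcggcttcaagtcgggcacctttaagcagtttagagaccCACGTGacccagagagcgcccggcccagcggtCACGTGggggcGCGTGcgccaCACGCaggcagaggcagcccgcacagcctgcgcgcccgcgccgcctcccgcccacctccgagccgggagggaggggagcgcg
Tet2: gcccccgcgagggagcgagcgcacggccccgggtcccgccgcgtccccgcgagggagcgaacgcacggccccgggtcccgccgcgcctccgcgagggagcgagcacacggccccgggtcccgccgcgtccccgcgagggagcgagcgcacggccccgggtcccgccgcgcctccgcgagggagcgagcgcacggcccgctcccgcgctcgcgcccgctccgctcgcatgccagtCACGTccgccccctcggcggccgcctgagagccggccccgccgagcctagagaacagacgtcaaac
Tet3: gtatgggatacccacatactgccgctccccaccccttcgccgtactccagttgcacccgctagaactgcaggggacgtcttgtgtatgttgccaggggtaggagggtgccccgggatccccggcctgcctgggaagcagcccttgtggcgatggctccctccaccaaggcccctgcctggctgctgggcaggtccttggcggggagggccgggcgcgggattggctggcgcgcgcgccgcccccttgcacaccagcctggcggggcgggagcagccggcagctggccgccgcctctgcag
A match is a description of the letters, and no binding was measured. The windows differ in base composition, from 60.7% G and C in the Kdm3a window to 81.3% in the Tet2 window, which has 57 CpG dinucleotides against 22 in the Tet3 window.

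Under OGD, 5 of the 9 genes were called higher than in control and none was called lower. The 5 were the H3K9 demethylase genes Kdm3a, Kdm4b and Kdm4c, the inducible H3K27 demethylase gene Kdm6b, and Tet2. H3K9 demethylase genes outside the 10 were mixed: Phf8 was called higher, and the paralogs Kdm4a, Kdm3b and Jmjd1c were not called. A call needed a limma p under 0.01 and a log2 fold change beyond 0.5 in either direction, and this rule called 11.2% of the 16123 tested genes higher and 9.81% lower. The libraries of both groups did not overlap for 8 of the 9 genes, against 55.4% of all genes tested. Among these, Tet3 was lower by -0.41, and Kdm5a and Kdm5c were higher by 0.30 and 0.17, short of the size for a call. The median log2 fold change was 0.62 over the 9 genes and 0.01 over all genes. The genes were chosen with earlier results of these data known. Their counts and medians, here and below, are therefore a description and no test against all genes. With A-485 added to OGD, none of the 9 was called higher and 2 were called lower, Kdm4b and Kdm5c. Of all genes, 12.2% were called higher and 13.4% lower. The groups did not overlap for 6 of the 9, near the 56.8% of all genes, and the medians were -0.23 and 0.01. Among these 6, Kdm3a was higher by 0.47, short of the size for a call. Kdm4c, Kdm6b and Kdm6a were lower (-0.40, -0.38 and -0.23), also short of it. The comparison of the A-485 group with OGD uses the same OGD libraries as that of OGD with control, so that a chance deviation of these libraries moves both in opposite directions. A two-sided exact permutation test of 3 libraries against 3 cannot give a p under 0.1, and all single-gene separations named below had that value.

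**Figure D1:**
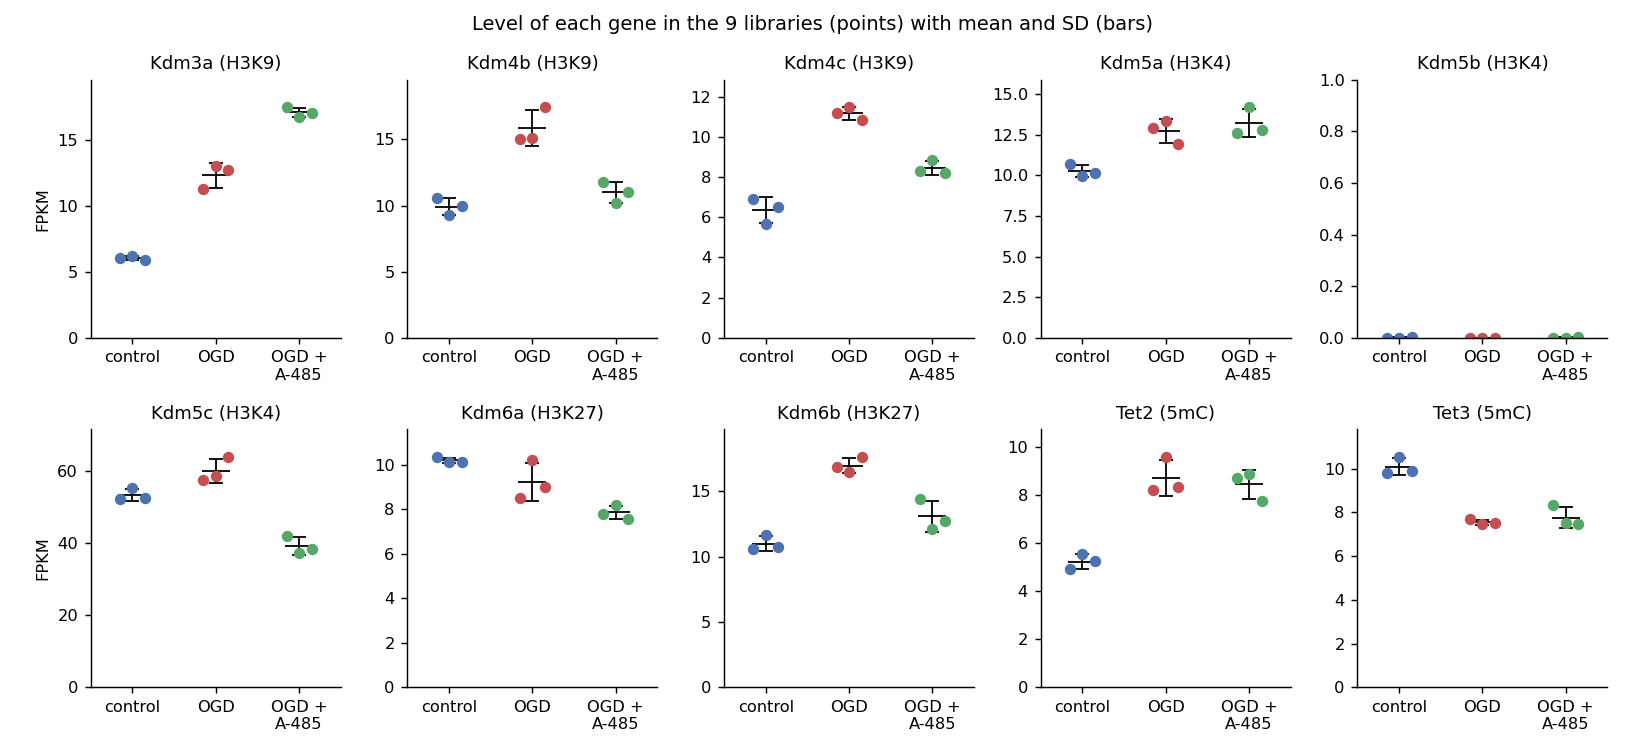
FPKM (vertical axes, each from 0) of the 10 genes in each of the 9 libraries (points), with the mean and SD of the 3 libraries of a group (bars), with control on the left, OGD in the middle and OGD + A-485 on the right. Kdm3a has separate ranges of 5.92 to 6.20, 11.3 to 13.0 and 16.8 to 17.5 FPKM, Kdm4b, Kdm4c and Kdm6b are highest in OGD, Kdm5c is lowest with A-485, and Kdm5b lies at or near 0 throughout.

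Kdm3a (ENSMUSG00000053470, chromosome 6 from 71588972 to 71632990 of GRCm38, minus strand) encodes the demethylase of mono- and dimethylated H3K9 also called JMJD1A. The control libraries had 6.08, 6.20 and 5.92 FPKM, the OGD libraries 11.3, 13.0 and 12.7, and the A-485 libraries 17.5, 16.8 and 17.1. No library of a group reached the range of another group, with OGD above control and the A-485 group above both. The rise with OGD was 1.01 on the log2 scale (SE 0.06, adjusted p = 3.46e-06 from limma), a ratio of means of 2.03. Against OGD, the A-485 group had a log2 fold change of 0.47 (SE 0.06, adjusted p = 0.000173 from limma), short of the size a call needs. Without OGD replicate 2, the highest of the OGD libraries, it was 0.51 and would be called, and with the median of its 50 nearest genes (0.16) removed it was 0.31. Against control, the A-485 group was higher by 1.48 (SE 0.06, adjusted p = 1.31e-07 from limma), a ratio of 2.82.

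Kdm4b and Kdm4c encode demethylases of di- and trimethylated H3K9, and both rose with OGD, but neither stayed as high with A-485. Kdm4b (ENSMUSG00000024201, chromosome 17, 56326062 to 56402870, plus strand) had 10.5, 9.26 and 9.94 FPKM in the control libraries, 15.04, 15.1 and 17.4 under OGD and 11.8, 10.2 and 10.995 with A-485. The OGD libraries stood apart from both other groups, which overlapped each other. The rise was 0.67 (SE 0.08, adjusted p = 0.000159 from limma) and the fall with A-485 was -0.52 (SE 0.08, adjusted p = 0.000569 from limma), just past the size for a call. It missed that size without OGD replicate 3 (-0.46), without A-485 replicate 2 (-0.47) and with a pseudocount of 1 FPKM (-0.49). The 50 genes nearest to Kdm4b had a median log2 fold change of -0.37 in the same comparison, and with that median removed -0.15 remained. The part of the neighbourhood in the fall was not tested further. The A-485 group against control gave 0.15 (95% interval -0.03 to 0.33, adjusted p = 0.150 from limma), but 0.43 with the median of the neighbours (-0.28) removed, 0.03 with scaling to library totals and 0.10 without A-485 replicate 1.

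Kdm4c (ENSMUSG00000028397, chromosome 4, 74242497 to 74405860, plus strand) had 6.92, 5.64 and 6.50 FPKM in the control libraries, 11.2, 11.5 and 10.8 under OGD and 8.27, 8.83 and 8.22 with A-485. The 3 groups did not overlap, and the A-485 group lay in the middle. The rise with OGD was 0.81 (SE 0.07, adjusted p = 3.94e-05 from limma). The A-485 group differed from OGD by -0.40 (SE 0.07, adjusted p = 0.00198 from limma) and from control by 0.41 (adjusted p = 0.00138 from limma), neither of which is a call. Summed, the 3 H3K9 demethylase genes came to 22.3 ± 1.21 FPKM without OGD, 39.4 ± 1.76 under OGD and 36.5 ± 0.907 with A-485 added (SD, n = 3). The sums of the 3 genes overlapped between OGD and the A-485 group, while the make-up of the sum differed. Kdm3a had the lowest mean of the 3 summed genes in control, at 0.614 ± 0.0492 of the level of Kdm4b. It had the highest mean of the 3 with A-485, at 1.56 ± 0.0816. In OGD that ratio was 0.780 ± 0.0720, and the 3 groups did not overlap in it. The ratio of Kdm3a to Kdm4c overlapped between control (0.963 ± 0.119) and OGD (1.11 ± 0.0877) and was 2.03 ± 0.114 in the A-485 group, above every library of the other groups.

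**Figure D2:**
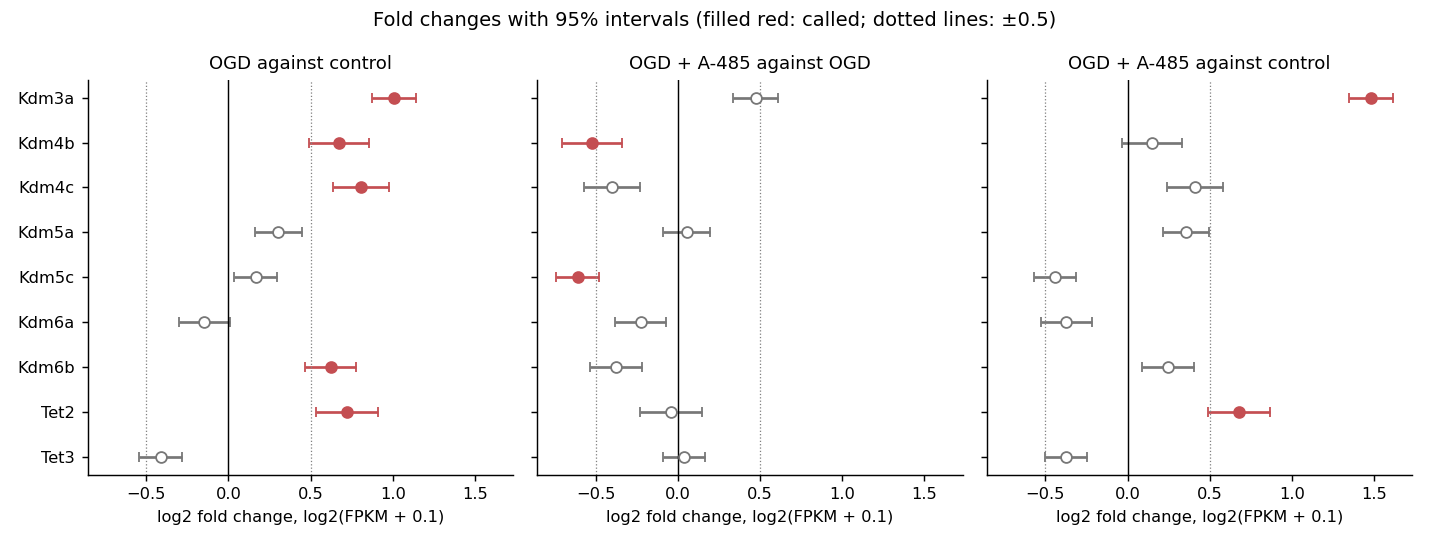
Log2 fold change of log2(FPKM + 0.1) (horizontal axes) with its 95% interval from limma for the 9 tested genes (rows) in the 3 comparisons (panels), called genes filled in red and the size for a call as dotted lines at ±0.5. Kdm3a is called against control both in OGD (1.01) and with A-485 (1.48), whereas Kdm4b is called higher in OGD (0.67) and lower with A-485 (-0.52), and the interval of Kdm5c lies beyond 0 on opposite sides in the first panel (0.17) and the second (-0.61).

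Of the H3K4 demethylase genes, Kdm5c had the highest level of the 10 genes in all groups, and it fell with A-485. Kdm5c (ENSMUSG00000025332, chromosome X, 152233020 to 152274535, plus strand) encodes a demethylase of di- and trimethylated H3K4 that represses neuronal genes outside neurons and is known from X-linked intellectual disability. Control libraries had 52.4, 55.3 and 52.5 FPKM, OGD libraries 57.6, 58.5 and 63.9, and A-485 libraries 42.1, 37.3 and 38.5. Every OGD library was above and every A-485 library below the control range. The fall against OGD was -0.61 (SE 0.06, adjusted p = 3.07e-05 from limma), a ratio of 0.655. OGD differed from control by 0.17 (SE 0.06, adjusted p = 0.0404 from limma) and the A-485 group from control by -0.44 (SE 0.06, adjusted p = 0.000154 from limma), neither past the size for a call. The neighbours of Kdm5c had a median of -0.14 with A-485, and with it removed the difference was -0.47, which is no call. Against control the median of the neighbours was -0.18, and -0.26 remained.

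Kdm5a (ENSMUSG00000030180, chromosome 6, 120364124 to 120444574, plus strand) encodes the retinoblastoma-binding H3K4 demethylase RBP2. Its level was 10.7, 9.99 and 10.2 FPKM in the control libraries, 12.9, 13.3 and 11.9 under OGD, and 12.6, 14.2 and 12.8 with A-485. Both OGD groups lay above control and overlapped each other. The log2 fold change was 0.30 with OGD (SE 0.06, adjusted p = 0.00383 from limma) and 0.05 between the A-485 group and OGD (95% interval -0.09 to 0.20). The last value was -0.20 with the median of the neighbours (0.25) removed. The ratio of Kdm5c to Kdm5a was 5.20 ± 0.325 for control, 4.74 ± 0.542 for OGD and 2.99 ± 0.350 for the A-485 group (SD, n = 3), whose libraries all lay below those of the other groups. The sum of the H3K4 genes was 63.7 ± 1.46, 72.7 ± 2.73 and 52.5 ± 1.91 FPKM in the same order, without overlap between groups.

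Kdm5b (ENSMUSG00000042207, chromosome 1, 134560171 to 134635285, plus strand), which encodes the H3K4 demethylase PLU-1 and is a paralog of Kdm5a and Kdm5c, had 2 reads in all, 1 in control replicate 3 and 1 in A-485 replicate 3. The other 7 libraries were at 0. A limit of 3 reads per library corresponds to 0.0112 to 0.0142 FPKM for a gene of this length, a limit chosen here for a gene at or near 0, which covers counting error only. No fold change is given. The gene lies between others with reads: of 19 other protein-coding genes that reach within 500 kb, 9 had a mean of at least 1 FPKM, with Adipor1 at 40.5 and Rabif at 7.60, and 10 were under 0.1 FPKM, among them the flanking genes Mgat4e at 0.0112 and Syt2 at 0.0555. The Y-linked paralogs of the set, Kdm5d and Uty, had 0 reads in all 9 libraries, and Tet1, the remaining TET gene, did not exceed a group mean of 0.005 FPKM.

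**Figure D3:**
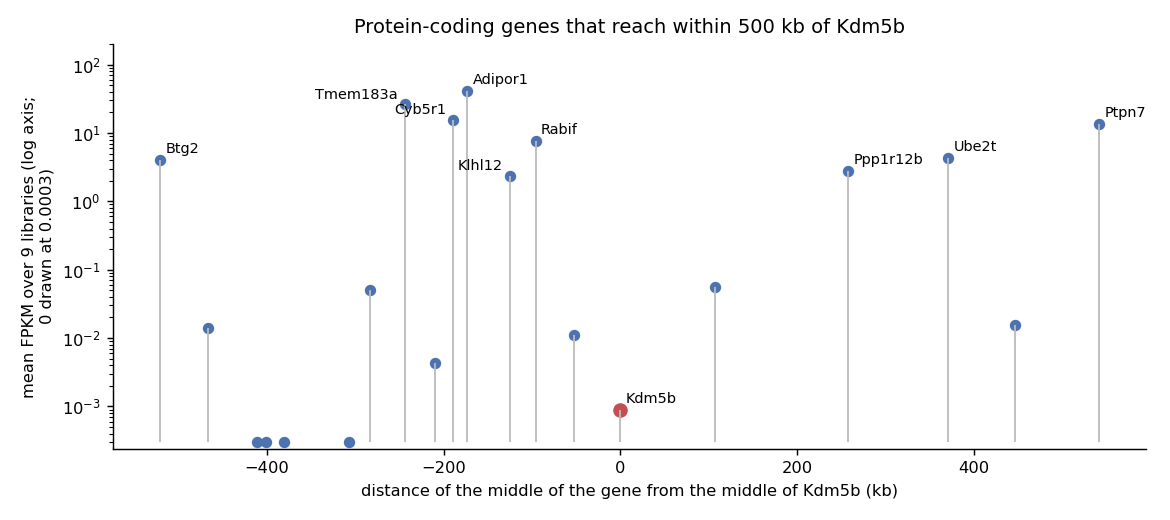
Mean FPKM over the 9 libraries (vertical log axis, with 0 drawn at 0.0003) of Kdm5b (red) and of the 19 other protein-coding genes that reach within 500 kb of it (blue), by the distance between the middle of each gene and that of Kdm5b in kb. Kdm5b sits below 0.001 FPKM, with 9 genes above 1 FPKM around it, of which Adipor1 is the highest at 40.5.

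The pair of H3K27 demethylase genes came apart under OGD. Kdm6b (ENSMUSG00000018476, chromosome 11, 69398508 to 69413675, minus strand), which encodes JMJD3, had 10.6, 11.7 and 10.7 FPKM in the control libraries, 16.8, 16.5 and 17.6 under OGD, and 14.4, 12.1 and 12.7 with A-485. These ranges did not overlap, and that with A-485 lay in the middle. The rise with OGD was 0.62 (SE 0.07, adjusted p = 0.000104 from limma). It was 0.49, short of a call, with the median of its neighbours (0.14) removed. The A-485 group differed from OGD by -0.38 (SE 0.07, adjusted p = 0.00167 from limma) and from control by 0.25 (adjusted p = 0.0133 from limma). The latter was 0.13 with scaling to library totals (unadjusted p = 0.0723 from limma) and 0.14 with the median of the neighbours removed (unadjusted p = 0.0776 from limma).

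Kdm6a (ENSMUSG00000037369, chromosome X, 18162575 to 18279936, plus strand) encodes UTX, a subunit of the KMT2C and KMT2D methyltransferase complexes. Control libraries had 10.3, 10.1 and 10.1 FPKM, OGD libraries 8.51, 10.2 and 8.99, and A-485 libraries 7.80, 8.19 and 7.59. OGD replicate 2 lay within the control range, and all A-485 libraries were below the rest. The log2 fold change was -0.15 with OGD (95% interval -0.30 to 0.01, adjusted p = 0.115 from limma), -0.23 between the A-485 group and OGD (adjusted p = 0.0219 from limma) and -0.37 between the A-485 group and control (adjusted p = 0.00135 from limma), and none of these is a call. The value with OGD was -0.09 without OGD replicate 1 and -0.22 without OGD replicate 2. The ratio of Kdm6b to Kdm6a was 1.08 ± 0.0651 for control, 1.85 ± 0.204 for OGD and 1.67 ± 0.181 for the A-485 group (SD, n = 3). Every library under OGD, with or without A-485, had a higher ratio than every control library, and the last pair of groups overlapped. The sum of both was 21.2 ± 0.519, 26.2 ± 0.754 and 20.9 ± 1.07 FPKM, so that control and the A-485 group overlapped in the sum but not in the ratio.

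Tet2 and Tet3 swapped their order under OGD. Tet2 (ENSMUSG00000040943, chromosome 3, 133463679 to 133545139, minus strand), the TET enzyme known as a tumour suppressor of blood cells, had 4.91, 5.56 and 5.24 FPKM in the control libraries, 8.22, 9.58 and 8.34 under OGD, and 8.73, 8.86 and 7.76 with A-485. Both OGD groups were above control and overlapped each other. The rise was 0.72 with OGD (SE 0.08, adjusted p = 0.000125 from limma) and 0.68 for the A-485 group against control (SE 0.08, adjusted p = 0.000105 from limma), with -0.04 between the OGD groups (95% interval -0.23 to 0.14).

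Tet3 (ENSMUSG00000034832, chromosome 6, 83362373 to 83459084, minus strand) had 9.82, 10.5 and 9.91 FPKM in the control libraries, 7.69, 7.47 and 7.50 under OGD, and 8.33, 7.50 and 7.46 with A-485. Both OGD groups were below control and overlapped each other. The log2 fold change was -0.41 with OGD (SE 0.06, adjusted p = 0.000377 from limma) and -0.37 for the A-485 group against control (SE 0.06, adjusted p = 0.000425 from limma), both short of the size for a call, with 0.04 between the OGD groups (95% interval -0.09 to 0.17). The ratio of Tet2 to Tet3 within a library was 0.4998, 0.528 and 0.529 for control, 1.07, 1.28 and 1.11 for OGD, and 1.05, 1.18 and 1.04 for the A-485 group. Tet2 was thus below Tet3 in 3 of 3 control libraries and above it in all 6 libraries under OGD. The sum of both had means of 15.3 ± 0.697, 16.3 ± 0.677 and 16.2 ± 0.930 FPKM, and all 3 groups overlapped in it.

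**Figure D4:**
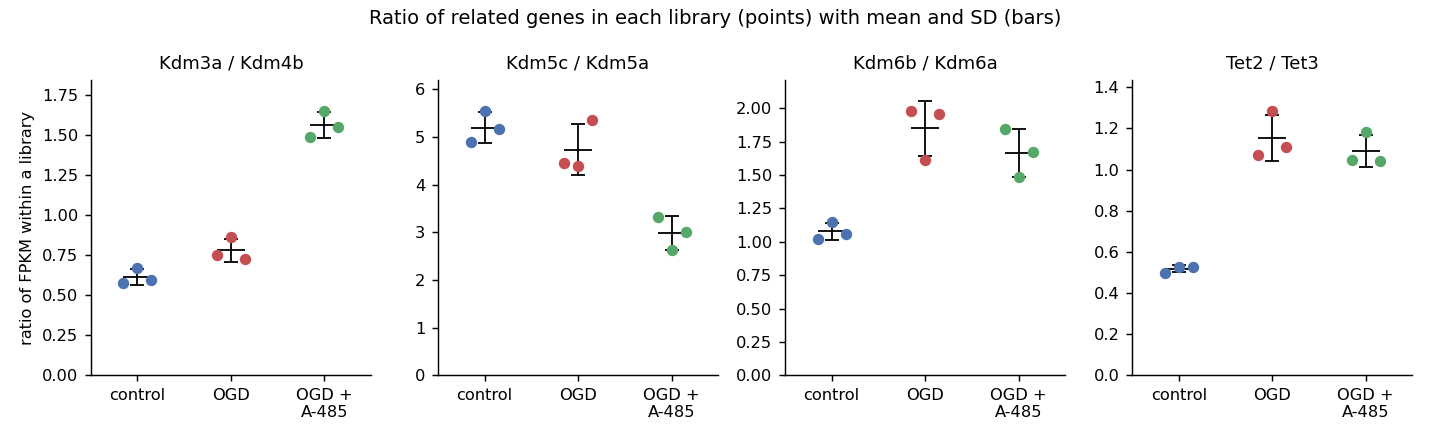
Ratio of the FPKM of related genes within each library (vertical axes, each from 0) for the 3 libraries of each group (points), with mean and SD (bars). Kdm6b to Kdm6a and Tet2 to Tet3 are higher in both OGD groups than in control (1.85 ± 0.204 and 1.15 ± 0.113 in OGD), whereas Kdm3a to Kdm4b (1.56 ± 0.0816) and Kdm5c to Kdm5a (2.99 ± 0.350) stand apart with A-485.

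Compared with control, the A-485 group had 2 of the 9 genes called higher, Kdm3a and Tet2, and none lower, where 17.0% of all genes were called higher and 16.6% lower. Libraries did not overlap for 8 of the 9, with Kdm4b the exception, against 63.8% of all genes. The median was 0.25 over the 9 genes and 0.02 over all genes. Over all 10 genes the summed level was 122.5 ± 1.69 FPKM for control, 154.5 ± 5.01 for OGD and 126.2 ± 4.61 for the A-485 group (SD, n = 3), with Kdm5c the largest part in each, and the first and last of these overlapped. Orders and ratios between genes depend on the gene lengths used for FPKM, from 4895 bases for Kdm4b to 16870 for Tet2. The change of a ratio between groups does not. In rank by level, Kdm3a was 8 of the 10 under control conditions, 5 under OGD and 2 with A-485, where it was above every library of all others but Kdm5c. In control, Kdm6b, Kdm5a, Kdm6a, Tet3 and Kdm4b followed Kdm5c, and neighbours among these 5 overlapped. They stood above Kdm4c and Kdm3a, which also overlapped, and Tet2 followed. In OGD, Kdm6b and Kdm4b overlapped below Kdm5c, followed by Kdm5a, Kdm3a and Kdm4c, which overlapped as neighbours, then by Kdm6a and Tet2, which overlapped, and then by Tet3. In the A-485 group, Kdm5c and Kdm3a were followed by Kdm5a and Kdm6b, which overlapped, by Kdm4b, by Tet2 and Kdm4c, which overlapped, and by Kdm6a and Tet3, which overlapped.

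The genes with the pattern most like that of Kdm3a, by Pearson's r of log2(FPKM + 0.1) over the 9 libraries among the 9814 candidates with mean FPKM of 1 or more, were Fndc3b (r = 0.999), Tln1, which encodes talin (0.998), and Itgb2, which encodes an integrin subunit of leukocytes (0.998). Fndc3b had group means of 6.17, 11.4 and 15.05 FPKM. The genes most like Kdm5c were Fbxw11, a ubiquitin ligase subunit (0.992), Sept9, a septin (0.991), and Syt11, a synaptotagmin (0.991), and Fbxw11 had means of 41.6, 43.9 and 35.1 FPKM. These values describe 9 libraries in 3 groups, which share depth and treatment, and the highest of many candidates is high by selection.

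Among the other genes for JmjC and TET proteins, of which 16 of 22 were tested, 1 was called higher with OGD and 3 lower. Of all genes tested, 11.2% were called higher and 9.81% lower. The one called higher was Phf8, a demethylase gene for H3K9 and H4K20. Among those not called were Kdm4a (log2 fold change 0.36), a paralog of Kdm4b and Kdm4c, and the Kdm3a paralogs Jmjd1c (0.37) and Kdm3b (-0.12). Those called lower were Jmjd4 (3.798 ± 0.173 to 2.08 ± 0.249 FPKM, log2 fold change -0.85), Kdm8 (-0.71) and Kdm2b (-0.65), and the median of the list was 0.16. With A-485, 1 was called lower than in OGD and none higher (median -0.00), where 13.4% and 12.2% of all genes were. It was Hspbap1, from 3.82 ± 0.0766 to 1.34 ± 0.102 FPKM (-1.45). Of 5 genes for the flavin-dependent histone demethylases, which use oxygen but not 2-oxoglutarate, and for their CoREST partners, Rcor3 rose (0.51) and Kdm1b fell (7.41 ± 0.204 to 5.17 ± 0.494 FPKM, -0.51) with OGD, and Rcor2 fell with A-485 (-0.58). Their medians were 0.06 and -0.39.

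Among the genes for enzymes and complex subunits of histone methylation, in 4 lists, none was called higher and 6 were called lower with OGD. Of all genes tested, 11.2% were called higher and 9.81% lower. Of 7 genes for H3K9 methyltransferases 2 were called lower, Suv39h2 (5.15 ± 0.256 to 2.88 ± 0.505 FPKM, -0.83) and Suv39h1 (7.89 ± 0.502 to 4.82 ± 0.529 FPKM, -0.70). None was called with A-485 (medians -0.24 and -0.32). Of 12 for H3K4 methylation, Setd1b (-0.81), Dpy30 (-0.79) and Wdr5 (-0.67) fell with OGD. With A-485, Setd1b rose from 1.60 ± 0.118 to 3.75 ± 0.390 FPKM (1.18) and Dpy30 fell (-0.55), and the medians were -0.21 and 0.14. Of 6 genes of the H3K27 methyltransferase complex, Rbbp4 fell with OGD (-0.55) and none was called with A-485 (medians -0.23 and -0.06), and of 6 for H3K36 methylation none was called in either comparison (medians -0.09 and 0.16). Medians of all genes tested were 0.01 in both comparisons.

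Of 10 tested genes for DNA methylation and its removal, 1 was called higher with OGD, Dnmt3l, and 4 were called lower. Uhrf1 and Dnmt1, which keep methylation through replication, went from 80.3 ± 2.12 to 46.0 ± 3.71 FPKM (-0.80) and from 60.1 ± 1.82 to 34.7 ± 1.79 FPKM (-0.79), and Dnmt3b and Tdg were the others. With A-485, Dnmt3a, a gene for a methyltransferase of unmethylated DNA, rose from 9.50 ± 0.216 to 16.2 ± 0.266 FPKM (0.77) and Cxxc5 fell (-0.98), with medians of -0.37 and -0.03 for the list. Of 16 genes for the metabolism of 2-oxoglutarate, succinate, fumarate and 2-hydroxyglutarate, 5 were called lower with OGD and none higher (median -0.22). Among them were Idh1, which makes 2-oxoglutarate in the cytosol, Sdhd (-0.56), Idh3a (-0.54) and Ogdh, which consumes it in mitochondria (-0.54). Idh1 had 16.6 ± 0.826 FPKM in control and 10.5 ± 0.186 in OGD (-0.66), and it was the one gene of the list called with A-485, where it rose to 25.0 ± 1.28 (1.25, list median 0.10). Of all genes tested, 11.2% were called higher and 9.81% lower with OGD, and 12.2% and 13.4% with A-485, with a median of 0.01 in both. The shares of these lists were not tested against all genes.

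**Figure D5:**
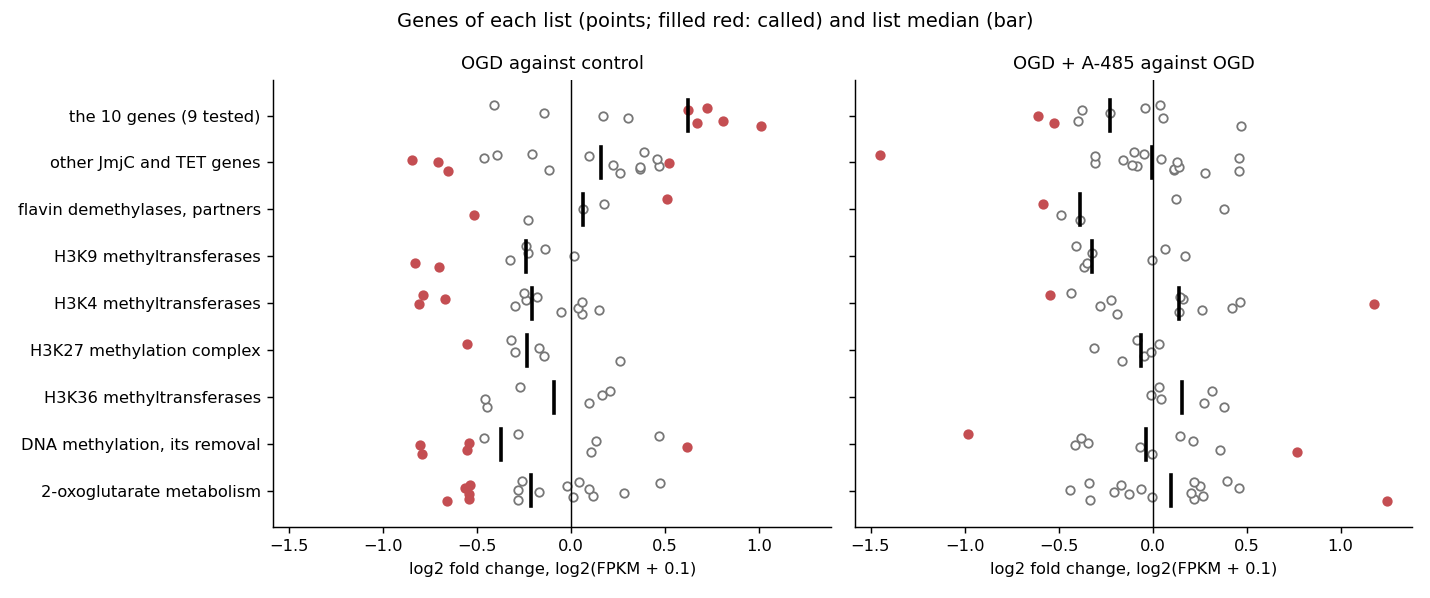
Log2 fold change of log2(FPKM + 0.1) (horizontal axes) for each tested gene (points, called genes filled in red) of the 10 genes and 8 related lists (rows), with the median of each row as a bar, in OGD against control (left) and OGD + A-485 against OGD (right). The bar of the 9 tested genes is at 0.62 in the left panel and -0.23 in the right one, while those of the methyltransferase rows lie between -0.24 and -0.09 on the left.

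Several of the 10 genes overlap others, and whether the reads were counted by strand is not stated. Kdm6b overlaps the antisense gene Kdm6bos, which had at most 8 reads in a library, and Kdm4c, Tet2 and Tet3 overlap antisense or other genes with at most 3, 9 and 11 reads. Kdm5a shares 251 bases with Ccdc77, a gene on the other strand with group means of 3.91, 3.35 and 2.29 FPKM. Apart from Kdm5b, the 10 genes had 468 to 6386 reads per library, and their coefficient of variation within a group ran from 1.29% to 10.2%.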

How the data were processed

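The authors deposited a table of FPKM, with the length and position of each gene. Per the labels, RNA libraries were made with a SMARTer mRNA-seq kit, and the submitters' processing notes name the builds GRCm38 and mm10. According to the methods, featureCounts was used to count the reads and FPKM was derived from the counts. The aligner and annotation release are not given in the sources used here. FPKM times gene length and a divisor for each library gave whole reads for 100% of values above 0 (tolerance 0.05 reads), so reads per gene are known. The divisor was not the total of these reads. It was above that total in control (13359079 against 12681228 in replicate 1) and below it with A-485 (14611484 against 15208237 in replicate 1). FPKM and their sums carry this scaling. With scaling to library totals, Kdm3a in the A-485 group against control was 1.37 in place of 1.48. Sept9, given as a date in the deposited table, was named by its identifier. Columns of other samples numbered 0.

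Values of log2(FPKM + 0.1) were fitted with limma 3.58.1 (R 4.3.3) for the 16123 genes averaging 0.2 FPKM or more, with 1 mean per group over all 9 libraries and a trended prior variance. A call needed p under 0.01 and a log2 fold change beyond 0.5 in either direction, and adjusted p-values are Benjamini-Hochberg over all genes tested. Fold changes on this scale understate those of low genes. The fit was tested on simulated data. The 10 genes and all lists were chosen with earlier results of these data known. In each list, up to 4 genes with the largest change among those called with OGD or with A-485 were named. Others were named after their values were seen, where they complete a count or are paralogs of the 10 genes. For 1 gene of a list, values are not reported here. The 3 genes most alike were named for the gene of the 10 with the largest change in each of the first 2 comparisons. Promoter windows came from RefSeq.

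The settings tried besides were pseudocounts of 1 and 0.01, other filters and scalings, fits of only the groups compared, and a replicate block. The others were limma-voom on the recovered reads, an adjusted p threshold, subtraction of the median of the 50 nearest genes, and each library left out. Other steps ran in Python 3.11.15 (pandas 2.3.3, numpy 2.4.6, matplotlib 3.10.9, scipy 1.17.1).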

Additional observations from a re-analysis of the deposited data

How the results depend on the processing

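Kdm5b, with 2 reads in all, was too low for a comparison, and 3 libraries per group limit the rest. Over 20 alternative settings, the log2 fold changes of the 9 genes in the 3 comparisons kept direction and side of the call in 511 cases, gained a call in 16, lost one in 6 and reversed in 7. The rise with OGD was called under all 20 settings for Kdm3a (0.91 to 1.07), Kdm4b, Kdm4c and Tet2. Where a value changed with a setting, the cause was not tested.

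Between the A-485 group and OGD, the number of the 9 genes called lower was 1 with a pseudocount of 1, 5 with an adjusted p under 0.05 and 0 with the median of the neighbours removed. Between the A-485 group and control it was 1 under quantile normalization and under scaling to library totals (Kdm5c in both, -0.54 and -0.56), and 3 with an adjusted p under 0.05. With that threshold, which asks for no size, 7 genes were called higher and 1 lower with OGD, 1 higher in the A-485 group than in OGD and 5 higher in the A-485 group than in control. Over all genes it called 3624 higher and 3676 lower with OGD, 4053 and 3983 in the A-485 group against OGD, and 4553 and 4577 in the A-485 group against control. With each library left out in turn, 1 to 2 of the 9 genes were called lower and 0 to 1 higher in the A-485 group than in OGD.

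The reversed values all concerned the A-485 group against OGD. Kdm5a was at -0.0112 with scaling to library totals and -0.1963 with the median of the neighbours removed. Tet3 was at -0.0271 and -0.0277 in the same fits, and between -0.0139 (without A-485 replicate 1) and 0.0649 with each library left out. Tet2 lay between -0.0829 and 0.0264 with each library left out, and was above 0 without OGD replicate 2 (0.0264) or A-485 replicate 3 (0.0165).

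Libraries that share a replicate number deviated from their group means no more alike than others (mean r across genes -0.0302 over 9 same-numbered pairs, from -0.125 to 0.0725, and 0.0151 over 18 other pairs). With the number as a replicate block, 5 of the 9 genes were called higher with OGD, 2 lower in the A-485 group than in OGD, and 2 higher in the A-485 group than in control, the same counts as without it.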
